A study of Sus scrofa with 5 samples.

Results

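The enzymes that write and erase DNA methylation were followed in pig blastoids and in the pig embryonic stem cells (pESCs) from which blastoids are made. The group holds 8 genes of the 30029 in the blastoid matrices and was chosen by name. *DNMT1*, *UHRF1*, *DNMT3A* and *DNMT3B* belong to the writing side, and *TET1*, *TET2*, *TET3* and *TDG* to the erasing side. *DNMT3B* set itself apart from the other 7 genes: it was the highest of the group in pESCs, and in blastoids, of the 5 classes of cells compared, it was above the level of cell-free droplets in *POU5F1* cells, with its highest level in those without *GATA3* transcripts. *TET2* and *TET3* ran the other way within the *POU5F1* cells, although without *GATA3* transcripts neither was above the level of cell-free droplets.

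The pESCs came, as the study describes, from parthenogenetic (PA) blastocysts and were grown in 4FIXY medium, which holds activin A, IGF1, IL-6, its soluble receptor α, the WNT inhibitors XAV939 and IWR1, the ROCK inhibitor Y-27632 and an ascorbate derivative, on mitomycin C-treated mouse embryonic fibroblasts. There were 3 bulk RNA-seq libraries of pESCs, whose columns are named IVFP25, PA_4P7 and PAP25. The name of the first begins with IVF, and the columns carry no replicate number. Blastoids were made from pESCs in iBlastoid medium, either from the start or after the cells had clustered in 4FIXY without IWR1, and which of these procedures gave the sequenced blastoids is not given in the sources used here. The iBlastoid medium holds IL-6 and its receptor α, activin A, LIF, IGF1, BMP4, bFGF, CHIR99021, XAV939, SB431542, Y-27632, DZNep, the histone deacetylase inhibitor TSA and an ascorbate derivative. Blastoids with a cavity and both compartments were picked by mouth on day 6, pooled and run as 2 single-cell libraries. Each is a single condition, so comparisons were made between cells of the same libraries. No source used here says that the 2 blastoid libraries are separate cultures, so p-values measure only the spread between these libraries.

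DNMT1 copies methylation onto the new strand behind the replication fork, and UHRF1 recruits it there by binding hemimethylated CpG and marking histone H3. DNMT3A and DNMT3B set methylation on unmethylated DNA, with DNMT3L as a partner without activity of its own in the germ line and early embryo. TET1, TET2 and TET3 oxidise methylcytosine, and TDG excises the oxidised products so that base excision repair puts back an unmodified cytosine. After fertilisation the mammalian genome loses most of its methylation, and the epiblast regains it around implantation, when *Dnmt3b* in the mouse is a known marker of the epiblast and of primed pluripotent cells, while extraembryonic lineages stay less methylated.

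In pESCs, levels are FPKM, fragments scaled by transcript length and by the mapped total, added over all transcripts of a gene, so they can be compared between genes. For *DNMT3B* this level was 771 in IVFP25, 770 in PA_4P7 and 564 FPKM in PAP25 (702 ± 119, SD, n = 3 libraries). It ranked 95, 75 and 110 among all symbols, near *POU5F1* at 526 ± 105 FPKM. *DNMT1* followed at 53.3, 56.4 and 58.7 FPKM (56.2 ± 2.71) and *UHRF1* at 46.0, 45.7 and 53.4 (48.4 ± 4.34). The range of *DNMT3B* over libraries did not overlap that of any other member, and its level was 14.5, 13.6 and 9.61 times that of *DNMT1* in the 3 libraries.

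The other de novo enzyme was far lower. *DNMT3A* reached 26.8 FPKM in IVFP25 but 15.3 and 15.0 in PA_4P7 and PAP25 (19.0 ± 6.68), so *DNMT3B* stood 28.8, 50.2 and 37.5 times above it. *DNMT3L*, the partner of both, had 0.229 ± 0.0364 FPKM. On the erasing side, *TDG* had 24.5, 23.1 and 23.4 FPKM (23.7 ± 0.776) and was the steadiest of the 8 genes.

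*TET1* was the highest of the TET genes, with 8.21, 15.2 and 12.2 FPKM (11.9 ± 3.49). *TET3* had 3.83, 5.07 and 6.69 FPKM (5.20 ± 1.43), and *TET2* had 0.853, 1.29 and 2.00 (1.38 ± 0.581). *TET1* was above *TET3* and *TET3* above *TET2* in every library, with *TET1* at 9.62, 11.8 and 6.09 times *TET2*, although the lowest *TET1* value and the highest *TET3* value lay close together. The 3 pESC libraries are 1 group, so none of these orders was tested, and in bulk RNA fewer cells of a kind and less RNA per cell cannot be told apart.

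**Figure D1:**
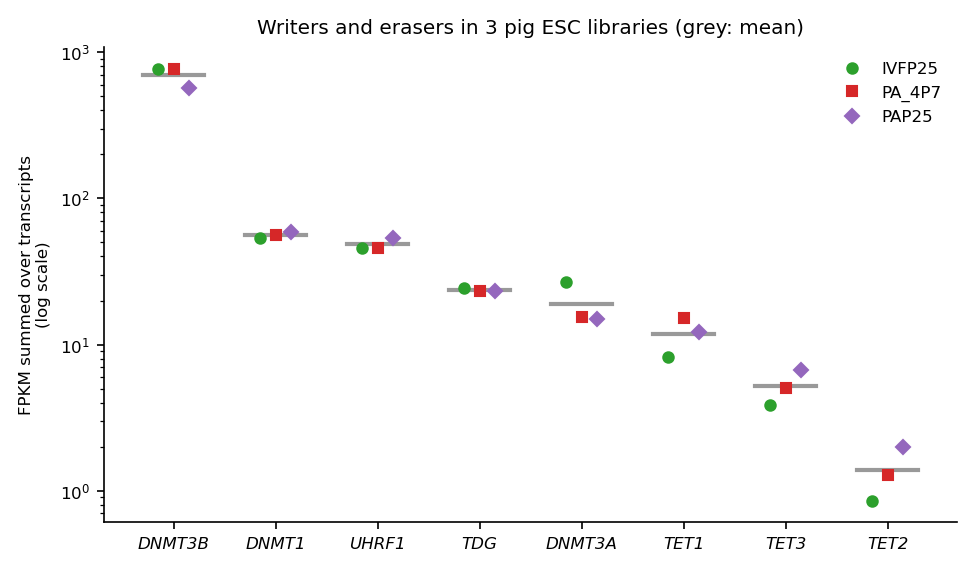
FPKM of the 8 genes in the 3 pESC libraries on a log axis, 1 marker per library, with grey lines for the mean. *DNMT3B* lies at 564 to 771 FPKM, above every other gene in each library, and *TET2* is lowest at 0.853 to 2.00 FPKM.

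*DNMT3B* lies on chromosome 17 of Sscrofa11.1 (susScr11), chr17:36345715-36386076 on the plus strand, and 14 RefSeq transcripts of it are in the table, 11 of them coding. They differ at a few exons, which the following reference sequences show with 10 flanking bases at each side. Exon bases are in capitals and intron bases in lower case, 5′ to 3′ on the plus strand. The first is a 60-base exon, 20 codons long, in 6 of the 14 transcripts. The other 2 lie further downstream and are 189 bases together, which keeps the reading frame when both are skipped.

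60-base exon, chr17:36371857-36371936: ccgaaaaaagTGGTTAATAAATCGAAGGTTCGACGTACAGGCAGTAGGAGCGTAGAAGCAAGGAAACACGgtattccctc
70-base exon, chr17:36382191-36382280: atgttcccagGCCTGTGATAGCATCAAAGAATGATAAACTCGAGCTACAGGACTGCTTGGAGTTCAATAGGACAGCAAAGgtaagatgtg
119-base exon, chr17:36383005-36383143: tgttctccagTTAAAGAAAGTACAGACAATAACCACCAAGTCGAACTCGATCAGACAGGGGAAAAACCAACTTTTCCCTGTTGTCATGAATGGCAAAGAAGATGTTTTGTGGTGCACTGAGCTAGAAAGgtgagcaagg

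Of the *DNMT3B* FPKM, transcripts with the 60-base exon held 81.0% (IVFP25), 57.1% (PA_4P7) and 45.1% (PAP25). The libraries thus differed in this share, with IVFP25 highest. Transcripts with both the 70-base and the 119-base exon held 78.8%, 67.6% and 57.8%, and those with neither held 13.8%, 10.6% and 20.4%. Forms with both of these exons therefore held most of the FPKM in all 3 libraries. In human and mouse, *DNMT3B* forms that skip exons of the catalytic region are known and lack activity of their own.

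Exon 2 of *DNMT3B* ends at 4 alternative positions spaced 9 bases apart, inside a stretch in which the same 9 bases come 3 times in a row. It is shown because each end is followed by the bases GT that mark a splice donor. Here the first 10 bases, in lower case, still belong to the exon of every transcript, the capitals mark the 27 bases that only the longest form keeps in full, and the last 10 bases are intron.

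Exon 2 ends, chr17:36361458-36361504: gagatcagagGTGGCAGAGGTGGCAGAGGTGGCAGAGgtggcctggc

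The shortest form, which ends at position 36361467, held 46.3% (IVFP25), 30.6% (PA_4P7) and 37.6% (PAP25) of the FPKM. The longest form, ending 27 bases later, held 32.2%, 22.8% and 34.1%. The forms 9 and 18 bases longer than the shortest held 10.3% and 11.2% in IVFP25, 28.2% and 18.4% in PA_4P7, and 12.1% and 16.1% in PAP25. All 4 ends were thus given FPKM in every library, and PA_4P7 stood apart with the highest share at the end 9 bases on.

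*DNMT1*, at chr2:68981564-69040364 on the minus strand, has 10 transcripts, 6 of them with a 111-base exon near the 3′ end. Its coding part of 95 bases is printed because PA_4P7 stood apart at it, in capitals after 10 intron bases and read on the minus strand.

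*DNMT1* exon, chr2:68982059-68982163: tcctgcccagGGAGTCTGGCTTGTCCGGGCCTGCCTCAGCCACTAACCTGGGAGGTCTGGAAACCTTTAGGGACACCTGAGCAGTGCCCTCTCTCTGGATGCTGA

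Transcripts with this exon held 19.8% (IVFP25), 64.2% (PA_4P7) and 15.7% (PAP25) of the *DNMT1* FPKM. The *DNMT1* total moved little over the same libraries. *DNMT3A* (chr3:113501972-113609148, plus strand) has 20 transcripts, and the 3 that begin at a downstream start, with shorter coding sequences, held 50.3%, 8.35% and 43.7% of its FPKM. By these class shares PA_4P7 stood apart at both genes. Within the downstream class of *DNMT3A*, however, IVFP25 and PAP25 differed from each other. NM_001097437.1 held 43.0% of the gene's FPKM in IVFP25 and 3.91% in PAP25, and XM_021085533.1 held 4.97% and 34.1%.

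Non-coding transcripts took 39.9%, 48.1% and 2.27% of the *DNMT3A* FPKM, and coding ones 10.1%, 34.7% and 96.8% of the small *TET2* FPKM (chr8:116413253-116546976, minus strand). *UHRF1* (chr2:73898061-73937727, minus strand) was divided between transcripts with different first exons, of which the one ending at 73931092 held 71.8%, 54.1% and 60.8%, and 1 of its 3 transcripts was listed at 0. *TET1* (chr14:71675671-71812732, plus strand), *TET3* (chr3:68918896-69020406, minus strand) and *TDG* (chr5:80473233-80492295, minus strand) have 1 transcript each. Transcripts of a gene share most of their bases, so these shares are StringTie's estimates of a division of reads, and the depth behind them is unknown.

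**Figure D2:**
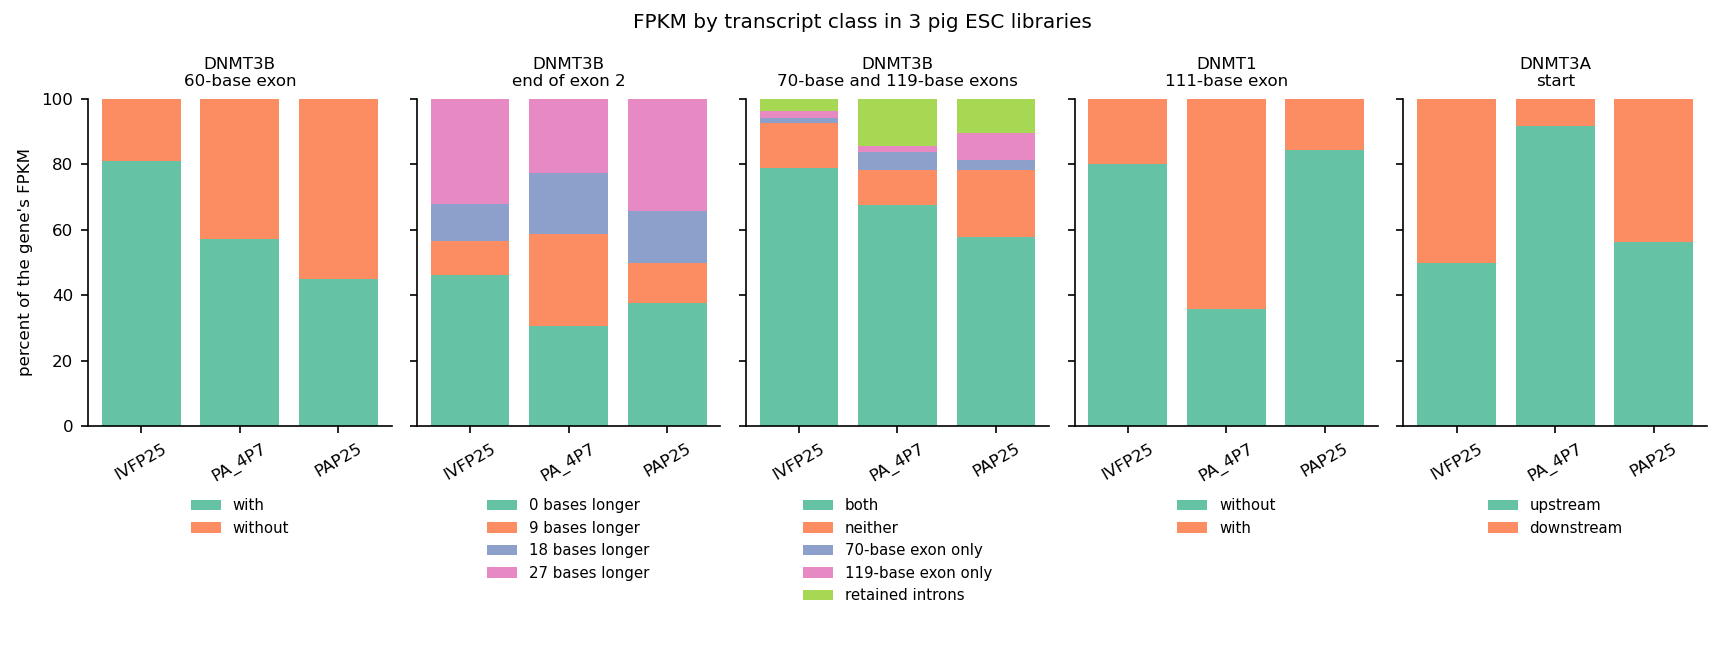
Share of each gene's FPKM, in percent, by transcript class in the 3 pESC libraries, for the 60-base exon, the ends of exon 2 and the 70-base and 119-base exons of *DNMT3B*, the 111-base exon of *DNMT1* and the start of *DNMT3A*. PA_4P7 differs from the other libraries at *DNMT1* (64.2% with the exon) and *DNMT3A* (8.35% from the downstream start).

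In blastoids, UMIs were counted in 7369 cells of library 1 and 8175 of library 2, with median totals of 29728 and 27588 UMIs per cell, and 9 barcodes occurred in both libraries. Cells were gated on 1 gene each, with at least 3 UMIs and 100 counts per 1000000 UMIs (CPM) of it and none of the other gates. *POU5F1* cells numbered 741 and 1181 in libraries 1 and 2, *CRABP1* cells 351 and 610, *GABRP* cells 1211 and 1349, *TP63* cells 699 and 637, and *COL3A1* cells 574 and 456. A further 2188 and 2388 cells passed no gate, and 1605 and 1554 passed more than 1 and were left out.

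The gates were checked against markers. Of 7 pluripotency markers, 6 were higher in *POU5F1* cells than in the other gates, and all 7 neural markers were higher in *CRABP1* cells and all 7 mesenchyme markers in *COL3A1* cells, the gate genes among them. In *COL3A1* cells 4 of 6 tested hypoblast markers were higher as well, with a median log2 fold change of 4.25 over the 6. *PDGFRA*, which is in both the mesenchyme and the hypoblast list, is counted in each. In *GABRP* cells 6 of 7 amnion markers were higher, the gate gene *GABRP* among them, but so were 6 of 7 trophectoderm markers. In *TP63* cells 3 of 5 tested surface ectoderm markers, the gate gene *TP63* among them, and 5 of 7 trophectoderm markers were higher. The defining keratins *KRT5* (0.18 and 0.16 CPM) and *KRT15* (0.93 and 0.26 CPM) were near 0 there. The gates are therefore called by their genes. Levels here are UMIs summed over the cells of a gate and library, in CPM, and are compared between gates and not between genes.

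*DNMT3B* had 150 CPM in *POU5F1* cells of library 1 and 215 in library 2 (183 ± 45.9, SD, n = 2), from 4581 and 9497 UMIs. It had 26.4 and 30.4 CPM in *CRABP1* cells, 21.0 and 23.6 in *GABRP* cells, 12.0 and 10.9 in *TP63* cells and 9.02 and 12.5 in *COL3A1* cells. The *POU5F1* values lay above all 8 others, and the share of all genes with such a gap was not counted. Droplets without a cell, with 10 to 100 UMIs, had 28.7 CPM (exact Poisson 95% interval 21.1 to 38.1) in library 1 and 48.2 (39.7 to 58.0) in library 2, so the 4 other gates were below the droplets in both libraries, and no expression is read from them. Intervals of this kind cover counting error only. The droplet level gives the make-up of free RNA and not its amount in a cell, which was not estimated. A level below it therefore does not show that a gene was off.

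The contrast of *POU5F1* cells with the mean of the other gates gave *DNMT3B* a log2 fold change of 3.38 ± 0.11 (SE, edgeR quasi-likelihood test, adjusted p = 1.82e-10). In this contrast 6 of the 8 members passed, 4 higher and 2 lower, against 55.4% of all 17384 genes tested, so the number of members that passed is close to the background. The other gates were below the droplets in *DNMT3B*, and the part of free RNA in their levels is not known. The size of the fold change is therefore not read as a ratio of expression. Of single cells, 62.5% and 67.1% of *POU5F1* cells held a *DNMT3B* UMI, against 16.9% and 20.0% of *COL3A1* cells, with median depths of 38194 and 34643 against 22315 and 19721 UMIs. After thinning every cell to 9000 UMIs these shares were 41.4% and 48.9% against 6.45% and 10.7%. In *CRABP1*, *GABRP* and *TP63* cells the mean shares were 44.8%, 33.9% and 25.2%, and 20.2%, 14.4% and 8.52% after thinning.

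**Figure D3:**
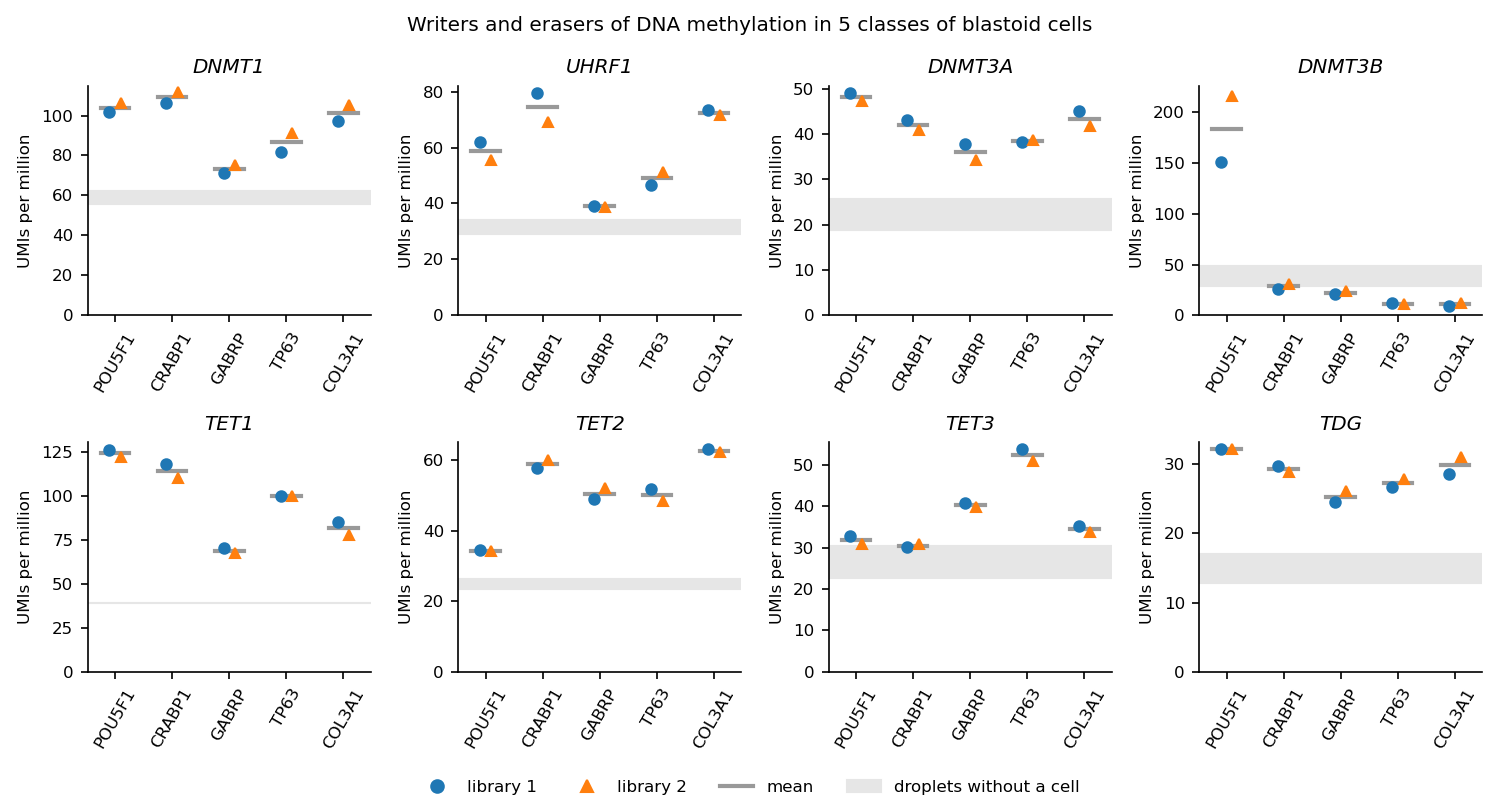
CPM of each gene in cells of the 5 gates, 1 marker per library with the mean as a line, and a grey band spanning the levels of the 2 libraries' droplets without a cell. *DNMT3B* is above the band in *POU5F1* cells (150 and 215 CPM) and in or below it in the other gates, whereas the other 7 genes vary by at most 2.03 times between the highest and the lowest gate in a library.

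*POU5F1* cells were not uniform in *DNMT3B*. Trophectoderm expresses *GATA3*, and *POU5F1* cells were therefore divided into those with 0 *GATA3* UMIs (133 and 317 cells, 17.9% and 26.8%) and those that met the same minimum for *GATA3* as for the gates (393 and 543 cells, 53.0% and 46.0%), with 215 and 321 between left out. All 7 trophectoderm markers were higher in the cells with *GATA3*, *GATA3* among them, and 5 of 7 pluripotency markers were lower. Markers of other classes moved with the split too. All 4 surface ectoderm markers that could be tested were higher with *GATA3* (median log2 difference 1.03), with a summed level of 528 and 533 CPM against 344 and 324 without, although *KRT5* and *KRT15* were at or near 0 in both groups. Of 5 neural markers tested, 3 were higher and 2 lower, with sums of 420 and 422 against 380 and 376 CPM. Of 7 amnion markers, 3 were higher and 2 lower, with sums of 329 and 324 against 87.3 and 77.5 CPM. The part of these classes in the member values was not tested. The split was chosen with earlier results on *DNMT3B* in these cells known. *GATA3* had 205 and 208 CPM in the cells with it and 77.4 and 77.2 CPM in droplets. Median totals were 36716 and 33559 UMIs with *GATA3* and 38961 and 34907 without.

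*DNMT3B* had 408 and 491 CPM in *POU5F1* cells without *GATA3* and 46.6 and 47.2 CPM in those with it. The groups did not overlap, and the ratio was 8.77 in library 1 and 10.4 in library 2. The share of all genes without overlap in the split was not counted, so the lack of overlap is only a description. With *GATA3*, the level was above the droplet interval in library 1 and within it in library 2. The ratio of library 2 is therefore not read as a ratio of expression. The log2 fold change, with against without *GATA3*, was −3.20 ± 0.08 (edgeR, adjusted p = 7.17e-12). Doublets of different cells were not tested for, and the value was −3.46 without cells above 2 times the median UMIs.

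After thinning to 9000 UMIs, 85.0% and 83.3% of the cells without *GATA3* still held a *DNMT3B* UMI and 53.4% and 55.8% held at least 3, against 23.9% and 23.8% with any and 3.56% and 4.05% with at least 3 where *GATA3* was present. Cells of no gate had 11.3 and 12.8 CPM. Over all *POU5F1* cells 17.5% and 25.1% held at least 3, so a high level marked a minority of the gate. The 215 and 321 cells with *GATA3* UMIs below the minimum were intermediate, with 187 and 244 CPM of *DNMT3B*. Library 2 had both the larger share of cells without *GATA3* and the higher *DNMT3B* in the gate as a whole.

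Of the 8 members 4 passed the test of the split, 2 lower and 2 higher with *GATA3*, against 43.5% of all genes. *TET2*, the TET enzyme without a CXXC domain of its own, had 25.4 and 23.3 CPM without *GATA3* and 42.1 and 44.5 with it, a log2 difference of 0.92 ± 0.09 (edgeR, adjusted p = 3.97e-06). *TET3*, known as the TET enzyme of the oocyte and zygote, had 21.0 and 20.4 CPM without *GATA3* and 38.7 and 37.1 with it (0.95 ± 0.09, adjusted p = 2.75e-06). Neither gene's groups overlapped, which is again only a description. The levels without *GATA3* lay inside the droplet intervals, at 19.0 to 35.3 and 17.7 to 30.5 CPM for *TET2*, or, for *TET3*, inside one interval (16.9 to 29.6 CPM, library 2) and below the other (22.6 to 40.2, library 1). With *GATA3*, *TET2* was above the droplet intervals in both libraries, whereas *TET3* was above in library 2 and still inside in library 1, where it is not read as expression in either group. This does not show that *TET3* was off: a mean of 70.2% of cells with *GATA3* and 46.2% of those without held a UMI of it. The log2 differences of *TET2* and *TET3* are not read as ratios of expression.

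*UHRF1* moved with *DNMT3B*, from 75.2 and 66.7 CPM without *GATA3* to 54.9 and 46.6 with it (log2 difference −0.40 ± 0.09, edgeR, adjusted p = 0.0024). *TET1*, *DNMT1*, *DNMT3A* and *TDG* did not pass, with log2 differences of −0.03, −0.12, −0.08 and 0.14. Replication genes moved with the split as well: 17 of 20 S phase genes were lower with *GATA3* and 1 was higher, and the summed S phase level was 3148 and 3152 CPM without and 2499 and 2434 with. Among cells with an S phase share above their library's median, *DNMT3B* (−3.10), *TET2* (0.52) and *TET3* (0.91) kept their calls, whereas *UHRF1* had −0.15 with an adjusted p of 0.175 by edgeR.

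**Figure D4:**
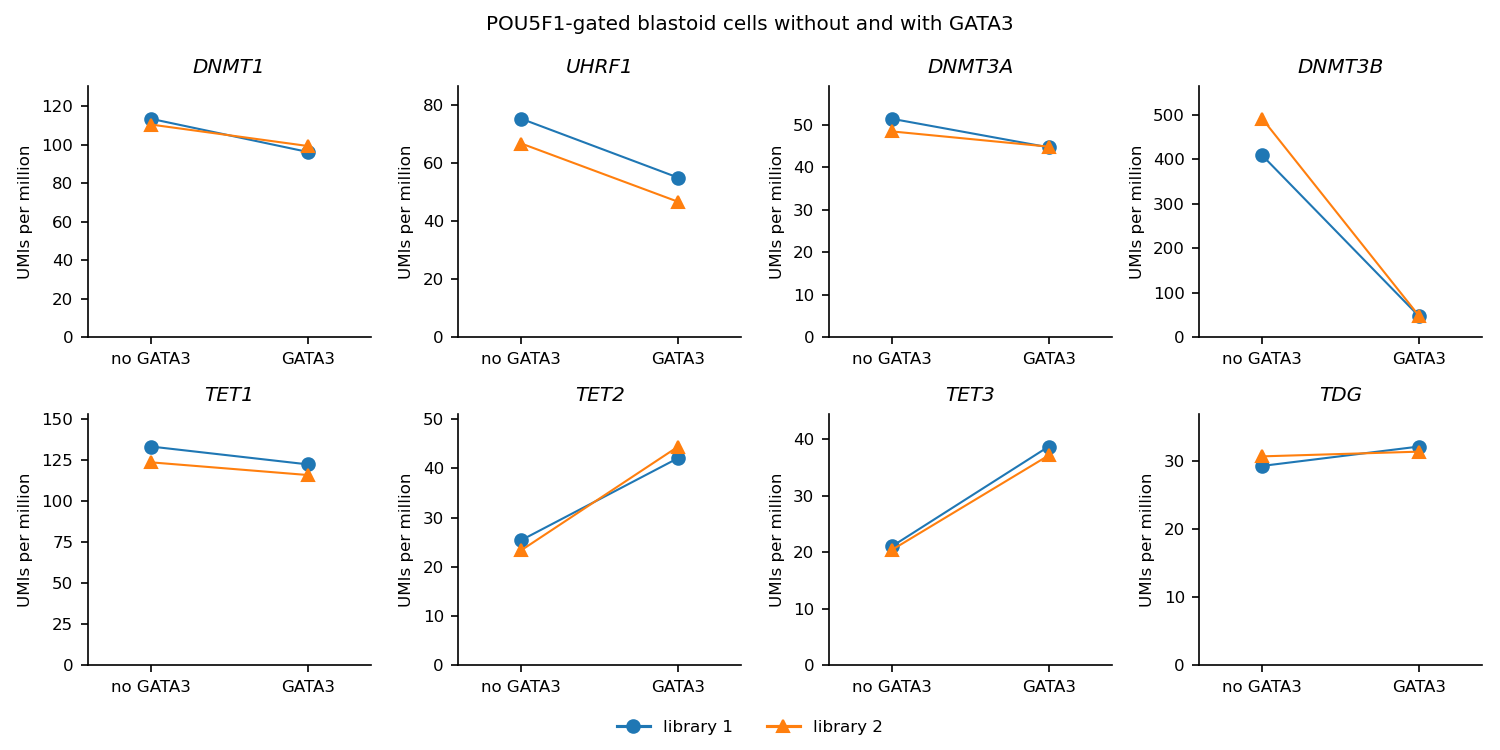
CPM of the 8 genes in *POU5F1* cells without and with *GATA3*, 1 line per library. *DNMT3B* drops from 408 and 491 to 46.6 and 47.2 CPM and *UHRF1* falls, *TET2* and *TET3* rise, and the other 4 genes did not pass the test.

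*TET2* and *TET3* also differed between the gates. *TET2* was lowest in *POU5F1* cells (34.6 and 34.1 CPM) and highest in *COL3A1* cells (63.1 and 62.4), with *GABRP* (48.9 and 52.1), *TP63* (51.7 and 48.6) and *CRABP1* cells (57.8 and 60.1) between. The last 3 did not differ from each other in pairwise tests, while *POU5F1* cells were below and *COL3A1* cells above each of them. Against the other gates *TET2* was lower in *POU5F1* cells by a log2 fold change of −0.77 ± 0.05 (edgeR, adjusted p = 6.90e-08) and higher in *COL3A1* cells (0.47). The call in *POU5F1* cells was lost among cells with a low S phase share (0.14, adjusted p = 0.179 by edgeR), where the gate kept 108 and 234 cells, of which 1 and 11 were without *GATA3*. The *TET2* level in *POU5F1* cells of library 1 lay inside the droplet interval given above, and that of library 2 lay above it.

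*TET3* was highest in *TP63* cells (53.9 and 50.9 CPM), then *GABRP* cells (40.7 and 39.7), *COL3A1* cells (35.3 and 33.7), *POU5F1* cells (32.8 and 31.0) and *CRABP1* cells (30.1 and 30.9). Of neighbours in this order, *POU5F1* and *CRABP1* did not differ, and the others did. The log2 fold change was 0.63 in *TP63* cells and −0.51 in *CRABP1* cells against the other gates. In *POU5F1* cells the log2 fold change of −0.36 ± 0.05 shrank to −0.02 (adjusted p = 0.890 by edgeR) at a low S phase share. In library 1 the levels in *COL3A1*, *POU5F1* and *CRABP1* cells lay inside the droplet interval, while in library 2 those of every gate lay above it.

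*TET1*, known for its high level in pluripotent cells, was highest in *POU5F1* cells (126 and 122 CPM), followed by *CRABP1* (118 and 110), *TP63* (99.8 and 99.9), *COL3A1* (85.4 and 77.8) and *GABRP* cells (70.5 and 67.3). Neighbours in this order differed except *CRABP1* and *TP63*. Even the lowest gate stood above the droplets, at 39.0 and 39.2 CPM. *TET1* rose in *POU5F1* cells by a log2 fold change of 0.39 ± 0.04 and fell in *GABRP* cells (−0.43), both called by edgeR, while it did not separate *POU5F1* cells with and without *GATA3*. *TDG* spanned the narrow range from 24.5 and 26.1 CPM in *GABRP* cells to 32.2 in *POU5F1* cells of both libraries, and its log2 fold change there of 0.13 ± 0.05 (edgeR, adjusted p = 0.0476) passed in 7 of 12 settings, over which it ran from 0.02 to 0.22. In pairwise tests of *POU5F1* cells, *TDG* passed against *CRABP1* cells only.

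*UHRF1* was highest in *CRABP1* cells (79.5 and 69.2 CPM) and *COL3A1* cells (73.3 and 71.5), which did not differ from each other, then came *POU5F1* cells (62.0 and 55.6), and last *TP63* cells (46.6 and 51.4) and *GABRP* cells (39.2 and 38.7), which also did not differ. The *UHRF1* level in *GABRP* cells of library 1 lay inside the droplet interval of 25.8 to 44.3 CPM. *DNMT1* followed a similar order with a smaller span: 106 and 112 CPM in *CRABP1* cells, 102 and 106 in *POU5F1*, 97.1 and 105 in *COL3A1*, 81.7 and 91.3 in *TP63* and 71.2 and 75.2 in *GABRP* cells. The first 3 of these did not differ in *DNMT1*, nor did the last 2. In *GABRP* cells both were lower than in the other gates, *UHRF1* by a log2 fold change of −0.53 and *DNMT1* of −0.29, and in *COL3A1* cells both were higher (0.51 and 0.20). *DNMT3A* varied least of the writers, from 37.9 and 34.3 CPM in *GABRP* cells to 49.1 and 47.3 in *POU5F1* cells, and was higher in *POU5F1* cells by 0.19 ± 0.05 (edgeR, adjusted p = 0.0043). *POU5F1* and *COL3A1* cells did not differ in *DNMT3A* (log2 difference 0.03, adjusted p = 0.755 by edgeR).

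S phase genes were not level between the gates. Their summed level was 2748 and 2722 CPM in *POU5F1* cells, 2052 and 2103 in *CRABP1*, 1653 and 1742 in *GABRP*, 1860 and 1960 in *TP63* and 1805 and 1777 in *COL3A1* cells, and 19 of 20 were higher in *POU5F1* cells. *UHRF1* and *DNMT1* did not pass in *POU5F1* cells (−0.03 and 0.11). Over 12 settings they passed in 2 and 6, *DNMT1* with values from −0.20 to 0.19. Among cells with a high S phase share they were lower there, at −0.48 and −0.20 (edgeR, adjusted p = 0.0098 for *DNMT1*), and among cells with a low share *UHRF1* was lower as well, at −0.83. *DNMT3B* remained higher in *POU5F1* cells at a high and at a low S phase share, by 3.49 and 1.31. At a low share the gate kept 108 and 234 cells, of which 1 and 11 were without *GATA3*. The part of this change of mix in the values at a low share was not tested. Over all members and contrasts, 37 of 48 log2 fold changes kept their direction and side of the threshold among cells with a high S phase share, 4 lost their call, 2 gained one and 5 changed sign. Among cells with a low share, in the gate contrasts, 22 of 40 kept both, 8 lost their call, 2 gained one and 8 changed sign.

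Counts of members in the remaining gates were also near the background. In *CRABP1* cells 3 of 8 passed against 41% of all genes, *UHRF1* and *TET1* higher and *TET3* lower, in *GABRP* cells 5 of 8 against 48.2%, in *TP63* cells 3 of 8 against 42.6%, and in *COL3A1* cells 6 of 8 against 56.5%. With the library as a block, since both libraries hold every gate, 6 members passed in *CRABP1* cells, against 46.9% of all genes under the block, and 6 in *TP63* cells, against 49.1%. The additions were *TET2* (0.13), *DNMT3A* (−0.14) and *DNMT1* (0.11) in the first and *DNMT1* (−0.14), *DNMT3A* (−0.13) and *TET1* (0.09) in the second, and *DNMT1* (0.11) in *POU5F1* cells and *TDG* (0.14) in *COL3A1* cells also passed with the block. The 5 gate contrasts use the same 10 sums and are not independent of each other.

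**Figure D5:**
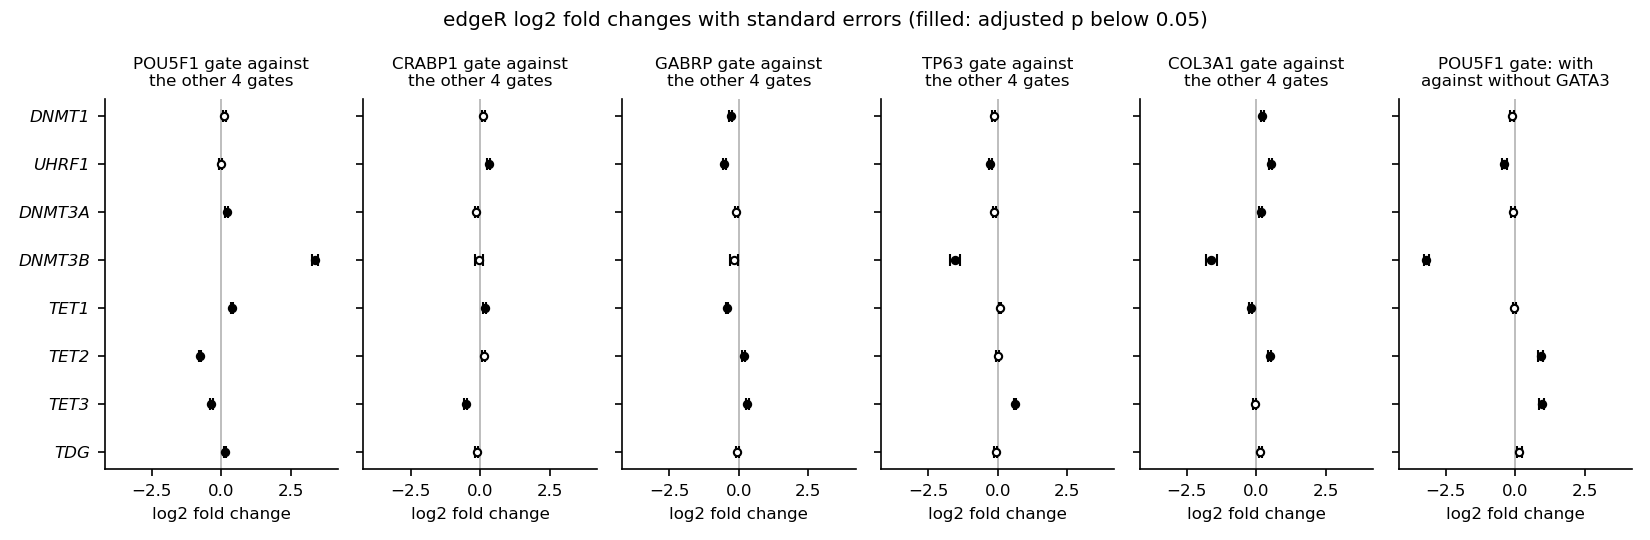
edgeR log2 fold changes with standard errors for the 8 genes, in each gate against the other 4 and in *POU5F1* cells with against without *GATA3*, filled where the adjusted p is below 0.05. *DNMT3B* reaches 3.38 in *POU5F1* cells and −3.20 in the split, and every other gene stays within 0.95 on either side of 0.

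Of 10 partners of the maintenance enzyme, a list that also holds *DPPA3*, which opposes it, 7 were higher in *POU5F1* cells and 0 lower. *DPPA3* was among the 7. The median log2 fold change was 0.33 against −0.03 over all genes, of which 26.5% were higher and 28.8% lower. The S phase list, with 19 of 20 higher and a median of 0.42, moved alongside these partners, and its part in their difference was not tested. *DPPA3*, which in mouse displaces UHRF1 from chromatin, had 8.50 and 13.8 CPM in *POU5F1* cells and at most 1.07 in any other gate (log2 fold change 4.73 ± 0.21). Droplets had 1.22 CPM of it in library 1 and 1.71 in library 2 (upper bounds 4.41 and 4.37), so the *POU5F1* values were above the droplets and the others were not. *CDCA7*, a partner of the remodeller HELLS, had 30.6 and 36.1 CPM against at most 19.7 elsewhere (1.12 ± 0.08). These genes parted within the *POU5F1* cells. *DPPA3* was higher in the cells with *GATA3* (13.2 and 18.9 CPM against 1.53 and 7.00, log2 difference 1.73 ± 0.31), the 1.53 CPM of library 1 being within the droplet interval, whereas *CDCA7* was higher in those without (54.2 and 60.8 against 18.4 and 18.9).

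Across that split 6 of the 10 maintenance partners were lower with *GATA3* and *DPPA3* was higher, against 20.9% of all genes lower and 22.6% higher. The S phase list fell there as well, by a median of −0.41. In pESCs *CDCA7* had 63.9 ± 11.3 FPKM, while *DPPA3* had 0.52, 0.11 and 0.12 FPKM. The assays differ, and levels in pESCs and blastoids were not compared. Of the 10 partners 9 had at least 1 FPKM in all 3 pESC libraries, *DPPA3* being the exception.

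Of 11 de novo partners and recruiters, 10 could be tested, and 3 were higher and 2 lower in *POU5F1* cells (median 0.06), near the 26.5% and 28.8% of all genes. *DNMT3L* was called higher (1.95 ± 0.32) at 0.98 and 1.20 CPM, but had 0.94 and 0.82 in *GABRP* cells, and both *POU5F1* values lay inside the droplet intervals (0.015 to 3.40 and 0.011 to 2.38 CPM), so no expression is read from them. *TRIM28*, the corepressor through which KRAB zinc finger proteins hold methylation at imprints and repeats, had 288 and 294 CPM (0.31 ± 0.04) and, in pESCs, 352, 384 and 353 FPKM. The zinc finger gene *ZHX1*, a binding partner of DNMT3B, was lower (−1.11 ± 0.09), as was *KDM1B* (−0.46 ± 0.09), a histone demethylase that in the mouse oocyte opens the way for imprints. Both were inside the droplet intervals in *POU5F1* cells of both libraries.

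On the erasing side, 9 of 22 partners and repair genes were higher in *POU5F1* cells and 8 lower, with a median of −0.01, against 26.5% and 28.8% of all genes. *PRDM14*, a regulator of naive pluripotency and germ cells that represses *Dnmt3* genes in mouse, had 17.0 and 14.8 CPM there and at most 2.54 in the other gates (3.62 ± 0.16), which was not above the droplet intervals (upper bounds 5.35 and 4.98). Within the *POU5F1* cells it was at 30.6 and 26.8 CPM without *GATA3* and 8.69 and 6.13 with it, so it was higher in the same class of cells as *DNMT3B*. In pESCs too *PRDM14* was found beside *DNMT3B*, at 65.1, 75.4 and 57.0 FPKM. The stress genes *GADD45G* (−1.35 ± 0.06) and *GADD45B* (−0.95 ± 0.06), proposed adaptors of demethylation, were lower, with levels in *POU5F1* cells below the droplets.

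Of 11 readers of CpG, 2 were higher and 6 lower in *POU5F1* cells, with a median of −0.14, against the same 26.5% and 28.8%. *ZBTB4*, which binds methylated DNA, was at 2.53 and 2.54 CPM in *POU5F1* cells and at 4.74 to 7.80 in the other gates (−1.35 ± 0.11), and *ZBTB38*, of the same family, had −0.29 ± 0.08. Both were inside the droplet intervals in *POU5F1* cells, so no expression of them is read there. *MBD3*, a subunit of the NuRD complex (0.15 ± 0.06), and *CXXC1*, which binds unmethylated CpG (0.13 ± 0.05), were slightly higher, although *MBD3* was inside the droplet intervals in both libraries and *CXXC1* in library 2. In the methyl donor cycle 2 of 11 were higher and 2 lower, fewer than the shares of all genes, with a median of 0.03. *AHCY*, which clears the product that inhibits methyltransferases, had 202 and 193 CPM in *POU5F1* cells against 80.8 to 134 elsewhere (0.73 ± 0.04). Droplets had 126 and 132 CPM of *AHCY* (upper bounds 145 and 148), so the other gates were not above them, and the fold change is not read as a ratio of expression. *MTHFD1* was higher as well (0.39 ± 0.06), while the methionine synthase gene *MTR* (−0.49 ± 0.08) and *MTHFD2* (−0.42 ± 0.07) were lower. Of these, *MTHFD2* in both libraries and *MTR* in library 2 lay inside the droplet intervals in *POU5F1* cells. The adjusted p-values behind the calls on these lists are from the same edgeR fit over all genes.

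In the other gates the counts differed from list to list. Maintenance partners had 0 higher and 5 lower of 10 in *GABRP* cells (21.6% of all genes were lower), in which *UHRF1* and *DNMT1* were also lower, 1 higher and 4 lower in *TP63* cells (22% and 20.6% of all genes), 2 higher and 4 lower in *CRABP1* cells (20.4% and 20.6%) and 2 higher and 3 lower in *COL3A1* cells (28.6% and 28%). The counts in *COL3A1* cells are near the share of all genes. In *CRABP1* cells none of the methyl donor genes was higher and 8 of 11 were lower, against 20.6% of all genes (median −0.34 against −0.01 over all genes). Of the same 11 genes, 4 were higher and 2 lower in *GABRP* cells (26.6% and 21.6% of all genes). In *TP63* cells 3 were higher and 1 lower, and in *COL3A1* cells 3 were higher and 3 lower. Counts of the de novo, erasing and reader lists are not given for these gates. Proliferation genes also differed between the gates. In *GABRP* cells 12 of 14 genes of G2 and M and 17 of 20 S phase genes were lower, and in *TP63* cells 9 of 14 and 10 of 20 were. In *COL3A1* cells 12 of 14 genes of G2 and M were higher, and 7 of 20 S phase genes were higher and 7 lower. The part of these genes in the counts was not tested.

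Over the 10 sums of gate and library, among 9567 genes with at least 10 CPM on average, the genes whose log2 CPM ran closest to *DNMT3B* were the splicing factor gene *HNRNPF* (Pearson r = 0.983), the uridine kinase gene *UCK1* (0.980) and the translation termination factor gene *GSPT1* (0.979). Closest to *TET3* were *PTPN14* (0.995), *UST* (0.987) and *SLC25A21* (0.983), and to *TET2* *STK16* (0.989), *LOXL2* (0.985) and *BMP5* (0.976). *UHRF1* ran with *RARRES1* (0.986), *ATP2B1* (0.980) and *CDCA7L* (0.978), *TET1* with *ZDHHC17* (0.983), *SIN3A* (0.969) and *FMNL2* (0.952), and *TDG* with *MRTO4* (0.990), *ITPA* (0.973) and *SLC7A5* (0.967). For *DNMT1* they were *WDR6* (0.977), *TK2* (0.967) and *PLAA* (0.958), and for *DNMT3A* *CCT7* (0.957), *NUDT4* (0.948) and *SNRPC* (0.938). The sums share libraries and 5 cell classes, so these are descriptions of a shared order. For *DNMT3B*, 8 of the 10 sums lay below the droplet level, so its order is largely that of *POU5F1* cells against the rest.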

How the data were processed

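Single-cell libraries of day 6 blastoids and bulk libraries of pESCs were used. According to the submitters' processing notes, Cell Ranger 7.1.0 and Seurat 4.3.0 were used for the single cells and Trim Galore 0.6.4, HISAT2 2.2.1 and StringTie 2.2.1 for bulk RNA-seq, with susScr11. The authors deposited raw UMI counts per gene and barcode, and FPKM per RefSeq transcript, which were summed here per gene symbol. Counts cannot be recovered from these FPKM, so their depth is unknown, and no test was run on them.

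Cells were barcodes that reached 11223 UMIs (library 1) or 9805 (library 2), and they held 87.8% and 87.7% of 289452283 and 302211552 UMIs. No doublet caller was run. Cells of more than 1 gate were left out, and an alternative left out cells above 2 times the median UMIs. UMIs were summed per library and gate, filtered with filterByExpr, scaled by TMM and tested with edgeR 4.0.16 (quasi-likelihood, R 4.3.3) with Benjamini-Hochberg adjustment over all genes and a threshold of 0.05. The SE of a log2 fold change is its absolute value divided by the square root of the F statistic of this edgeR test. The steps were tested on simulated counts. Pairing by library was checked on the deviations from gate means: correlations of the same-numbered libraries were 0.117 to 0.479 over the pairs of gates, and the number marks 1 cell preparation, so the library was also fitted as a block. DESeq2 1.42.0 was an alternative, and the others were size factors, filters, gates, thinning and S phase range.

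The members and lists were chosen with earlier results of these data known. Named are all members, from each list the 2 genes with the largest log2 fold change in each direction in the *POU5F1* contrast among those called, and the 3 genes closest to each member. One gene that the rule names is not reported here. Exons and coordinates are from RefSeq on Sscrofa11.1.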

Additional observations from a re-analysis of the deposited data

How the results depend on the processing

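The 48 log2 fold changes of members gave 520 values under alternative settings with a test, of which 442 kept direction and side of the threshold, 23 lost their call, 29 gained one and 26 changed sign. Lost calls were 5 of *TDG* in *POU5F1* cells, 6 of *DNMT3A* and 2 of *TET1* in *COL3A1* cells, 3 of *TET2* in *GABRP* cells, and 1 each of *TET3* (*POU5F1* and *GABRP* cells), *TET1* (*CRABP1*), *DNMT1* (*GABRP* and *COL3A1*), *TET2* (*COL3A1*) and *UHRF1* (split). *DNMT3B* kept its call in *POU5F1* cells in all settings with a test (1.31 to 3.74) and in the split (−3.46 to −3.10). With 1 library left out there is no spread among samples and so no test. Every log2 fold change called in the main fit then kept its sign, and the signs of those not called were not scored. Sign changes were as follows, and where no cause is given it was not tested. In *POU5F1* cells *TET2* had 0.14 at a low S phase share, *UHRF1* 0.016 without a filter, 0.095 at the stricter gate and 0.030 under the UMI limit, and *DNMT1* −0.20 at a high and −0.019 at a low S phase share. In *CRABP1* cells *DNMT3B* had 0.10 under the UMI limit, 0.011 thinned, 0.074 at a high and 0.31 at a low S phase share, where *TDG* had 0.019 and *DNMT3A* 0.00013. In *GABRP* cells *DNMT3B* had 0.51 at a low S phase share, and *TET2* −0.11 and *TDG* 0.0038 at a high one. In *TP63* cells *TET2* had −0.0098 by DESeq2 and with its size factors in edgeR, −0.010 without a filter, −0.087 at the looser gate, −0.0064 with a mitochondrial filter and −0.28 at a low S phase share, *DNMT3A* had 0.0020 at a high share and *UHRF1* 0.042 at a low one. In *COL3A1* cells *TET3* had 0.010 at the stricter gate and 0.030 thinned, and in the split *DNMT3A* had 0.027 under the UMI limit. The setting with a low S phase share was chosen after seeing the data.

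Genes called fell to 5670 in *POU5F1* cells at a low S phase share, to 4593 in *CRABP1* and 5261 in *GABRP* cells at a high one, and in the split to 4399 by DESeq2 and 3953 after thinning, settings with fewer cells, UMIs or another tool. Members called were 6 in *CRABP1* and 6 in *TP63* cells with the library as a block, which pairs the libraries, against 46.9% and 49.1% of all genes. They were 5 in *TP63* cells under the UMI limit (42.4% of all genes), 3 in *GABRP* cells at a high S phase share (33.8%) and 2 in *COL3A1* cells at a low one (53.7%). Of the member calls in the gate contrasts and the split, the block changed only those given beside the results. The pairwise tests and the lists were run without the block. Taking the single highest transcript in place of the sum lowered the mean FPKM to 15.3 for *DNMT1*, 4.16 for *DNMT3A*, 130 for *DNMT3B*, 0.644 for *TET2* and 30.1 for *UHRF1*.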
